A study of Mus musculus with 4 samples.

Results

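The genes described here are 38 mouse orthologues of human hereditary deafness genes that lie outside the groups of hair bundle, gap junction, tectorial membrane and strial channel genes. They were taken from a fixed list of symbols that was drawn up with earlier results of these data known. All 38 were found among the 37239 gene identifiers of the 4 libraries. Genes were tested where at least 2 libraries reached 1 CPM, the read count scaled to the library's total. This left 36 of the 38 members and 14721 genes in all. Whole cochleae of mice at postnatal day 8 had been profiled by RNA-seq in 2 genotypes. Mice homozygous for cello, written Ikzf2cello/cello, were compared with wild-type littermates, Ikzf2+/+, with 2 libraries each. Cello is a mutant allele of Ikzf2, which encodes helios, a zinc finger transcription factor of outer hair cells. The labels name no other allele and no treatment. The labels call the libraries biological duplicates and do not say whether several animals were pooled, nor do they give sex or strain. P-values therefore measure the spread between these libraries.

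Hereditary deafness arises from genes with very different roles. Some build the actin cytoskeleton or the base of the hair bundle, others carry vesicles and lipids, seal the junctions between epithelial cells, receive growth factor or lipid signals, or serve mitochondria and the endoplasmic reticulum. Many are used in cells other than hair cells, so that in a whole cochlea their transcripts come from epithelium, nerve, connective tissue and bone together.

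The libraries held between 42152616 and 49719984 counted alignments, of which 70.0% to 72.8% lay in genes. Ikzf2 itself stood at 17.7 and 16.9 CPM in cello and at 22.9 and 18.5 CPM in wild-type. Cello changes the protein, so the transcript level does not check the genotype labels. Markers of the cochlear cell types were present, and in every marker list 0 of the genes found in the files lacked reads in any library. The libraries also differed in make-up. The summed level of 10 Schwann cell genes was 3952 and 4798 CPM in cello against 1118 and 2705 CPM in wild-type, and that of 8 bone genes was 3190 and 1190 CPM in cello against 1527 and 1687 CPM in wild-type.

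No member was called different between the genotypes. Differences are given as log2 fold changes, cello minus wild-type, of log2(CPM + 0.5), fitted with limma across all genes tested and adjusted by the Benjamini-Hochberg method. Of the 36 members tested, 0 passed an adjusted p of 0.05, as did 0% of all genes tested. Their adjusted p ranged from 0.419 to 0.899 in limma. The count test of edgeR called 0 members and 0% of all genes, with 9 members and 9.94% of all genes at an unadjusted p under 0.05. DESeq2 called 0 members against 1.32% of all genes, with 11 members and 9.29% of all genes at an unadjusted p under 0.05. It left the adjusted p undefined for Pjvk and for 7.76% of all genes. Before adjustment 8 members were lower in cello at p under 0.05 in limma, which is 22.2% of those tested against 6.47% of all genes, and 3 were higher, 8.33% against 4.42% of all genes. Both cello libraries lay below both wild-type libraries for 16 members, 44.4% against 28.7% of all genes, and above them for 8 members, 22.2% against 16.9% of all genes. A log2 fold change below 0 was found for 23 members, 63.9% against 56.6% of all genes. The median log2 fold change was -0.12 over the 36 members and -0.03 over all genes tested.

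The 8 members that stood lower before adjustment were Ildr1, Actg1, Wfs1, Gipc3, S1pr2, Met, Synj2 and Diaph1, and the 3 that stood higher were Pnpt1, Diaph3 and Gsdme. In a fit of genes with a mean of at least 5 CPM, which held 31 members, 8 had such a p on the lower side and 2 on the higher side, against 7.49% and 4.02% of all genes at that level. Gipc3 and Diaph3 were not in that fit, and Tprn came under the threshold there. The median absolute log2 fold change was 0.23 over the 36 members and 0.13 over all genes tested. The 95% interval of 30 of the 36 members lay within -1 and 1 on the log2 scale. For 18 members it lay between -0.5 and 0.5, and no such counts are given here for all genes. In 17 members the difference between genotypes was larger than the gap within either genotype, and in 19 it was not. Of all genes tested 31.1% had such a difference. The second wild-type library held the highest value of 17 tested members and the second cello library the lowest value of 14. These 2 counts are not given here for all genes, so they are not read as a trait of the members.

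**Figure D1:**
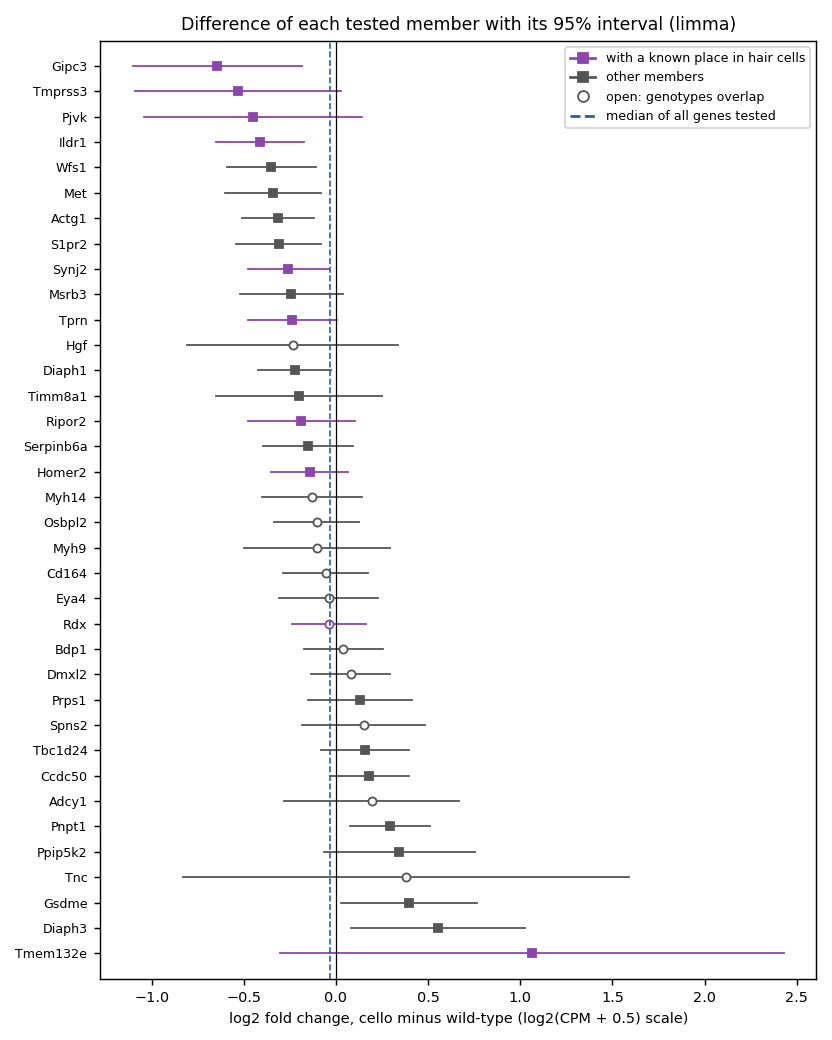
Log2 fold change, cello minus wild-type, of the 36 tested members on the log2(CPM + 0.5) scale (x axis), ordered by size, with 95% intervals from limma. Filled squares mark members whose genotypes did not overlap. Purple marks members known for hair cell enrichment, labelled as having a known place in hair cells. The dashed line is the median of all genes tested (-0.03). Gipc3 is lowest at -0.64 and Tmem132e highest at 1.06, with the widest interval.

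Transcripts of several epithelial cell types stood lower in the same cello libraries. Of 12 general epithelial genes, such as Epcam and Cdh1, 12 had a log2 fold change below 0, and their summed level was 925 and 994 CPM in cello against 1184 and 1283 CPM in wild-type. The summed level of 10 outer hair cell genes, which include Ikzf2 itself, was 326 and 306 CPM in cello against 488 and 480 CPM in wild-type. All 10 were below 0, and 9 did not overlap on the lower side. Ocm alone had 33.9 and 16.6 CPM in cello against 116.0 and 107.5 CPM in wild-type. Of 7 strial genes 7 did not overlap on the lower side, against 28.7% of all genes tested. The strial genes had a summed level of 3358 and 3138 CPM in cello against 3804 and 4197 CPM in wild-type and a median of -0.38. Of 11 supporting cell genes tested 10 were below 0, with a median of -0.32. Their summed level was 2931 and 4939.6 CPM in cello against 5109.6 and 5375 CPM in wild-type. Tectb alone had 747.6 and 2633.4 CPM in cello against 2473.7 and 2593.7 CPM in wild-type. Of 12 measured supporting cell genes 6 did not overlap on the lower side, and Prox1 was higher in both cello libraries. In whole cochlea, fewer cells of a type and less RNA per cell cannot be told apart. The part of these cell types in the members' differences was not tested.

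Promoters of a few members are printed here because the mutated factor binds DNA. Ikaros family zinc fingers bind sites with the core letters GGGAA. The windows are the 250 bases before the RefSeq start of each gene on GRCm38.p6, written 5′ to 3′ on the gene's strand. They belong to the 3 members with the lowest and the 3 with the highest log2 fold change among those with an unadjusted p under 0.05. The windows of Diaph3 and Wfs1 lie partly, and that of Gsdme wholly, inside the longer gene bounds of GENCODE given with each gene. Capitals mark GGGAA or its reverse complement TTCCC.
Gipc3, chr10:81343360-81343609, minus strand: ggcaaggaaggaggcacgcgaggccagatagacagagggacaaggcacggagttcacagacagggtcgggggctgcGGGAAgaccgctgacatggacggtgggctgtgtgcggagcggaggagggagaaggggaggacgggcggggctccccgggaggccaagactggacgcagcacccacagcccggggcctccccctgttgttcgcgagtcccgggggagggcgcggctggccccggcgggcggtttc
Ildr1, chr16:36693728-36693977, plus strand: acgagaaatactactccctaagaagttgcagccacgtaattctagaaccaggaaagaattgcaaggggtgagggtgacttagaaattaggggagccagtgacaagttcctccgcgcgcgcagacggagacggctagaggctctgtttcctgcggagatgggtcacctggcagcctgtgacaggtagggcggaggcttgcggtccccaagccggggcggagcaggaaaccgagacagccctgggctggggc
Wfs1, chr5:36988983-36989232, minus strand: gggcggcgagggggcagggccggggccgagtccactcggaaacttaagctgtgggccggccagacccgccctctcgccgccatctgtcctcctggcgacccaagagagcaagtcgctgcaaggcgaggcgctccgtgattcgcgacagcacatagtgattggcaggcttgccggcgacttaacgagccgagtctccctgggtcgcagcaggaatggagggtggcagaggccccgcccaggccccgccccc
Diaph3, chr14:87141225-87141474, minus strand: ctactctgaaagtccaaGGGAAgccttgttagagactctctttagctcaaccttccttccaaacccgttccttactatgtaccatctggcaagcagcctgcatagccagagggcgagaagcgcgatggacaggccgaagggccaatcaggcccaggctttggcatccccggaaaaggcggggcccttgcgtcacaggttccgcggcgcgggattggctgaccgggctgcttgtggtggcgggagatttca
Gsdme, chr6:50261770-50262019, minus strand: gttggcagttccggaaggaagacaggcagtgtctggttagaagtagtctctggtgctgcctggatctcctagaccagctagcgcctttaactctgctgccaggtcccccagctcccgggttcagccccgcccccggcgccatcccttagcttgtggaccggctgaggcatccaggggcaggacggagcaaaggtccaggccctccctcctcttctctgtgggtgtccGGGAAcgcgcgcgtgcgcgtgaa
Pnpt1, chr11:29130494-29130743, plus strand: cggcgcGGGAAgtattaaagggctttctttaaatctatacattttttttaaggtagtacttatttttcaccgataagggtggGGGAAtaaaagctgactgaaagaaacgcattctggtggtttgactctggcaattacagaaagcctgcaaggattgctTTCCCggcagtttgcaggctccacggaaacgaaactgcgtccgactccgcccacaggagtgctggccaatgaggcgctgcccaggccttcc

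Among these promoters Ildr1 and Wfs1 held no match, Gipc3, Diaph3 and Gsdme held 1 each, and Pnpt1 held 3. Over all members with an entry, 36 genes with 48 windows, 24 windows or 50.0% held GGGAA on either strand, against 56.2% of all 32851 promoter windows of the same length. The longer word TGGGAA, which contains GGGAA, was found on either strand in 8 of the 48 windows, or 16.7%, against 21.6% of all windows. A match in such a window is a description of letters and not a binding site.

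Most genes of the actin cytoskeleton and the bundle base stood slightly lower. Of 8 tested, 7 had a log2 fold change below 0 and 4 did not overlap on the lower side, against 56.6% and 28.7% of all genes, with a median of -0.16. Actg1 (chromosome 11, 120345690 to 120348542 of GRCm38, minus strand) encodes cytoplasmic gamma actin. Its CPM were 85.8 and 80.3 in cello against 102.4 and 104.1 in wild-type. Both cello libraries were below both wild-type libraries, and the log2 fold change was -0.31 (SE 0.08, limma adjusted p = 0.419). Its level is uncertain, because gamma actin has near-identical processed copies and alignments that were not unique were not counted in genes. Diaph1 (chromosome 18), a formin that elongates unbranched actin filaments, had 48.2 and 45.7 CPM in cello against 54.0 and 55.6 CPM in wild-type, and a log2 fold change of -0.22 (SE 0.08, limma adjusted p = 0.441).

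Its relative Diaph3 was on the other side. Diaph3 (chromosome 14, 86655367 to 87141235, minus strand) stood at 3.20 and 3.03 CPM in cello against 1.83 and 2.11 CPM in wild-type. Both cello libraries were higher, by a log2 fold change of 0.55 (SE 0.19, limma adjusted p = 0.441), at 89 to 144 reads per library. Among 6 cycling cell genes, of which 6 were above 0, the summed level was 74.1 and 52.0 CPM in cello against 41.7 and 59.6 CPM in wild-type. The sum overlapped between the genotypes, while 2 of the 6, Cdk1 and Bub1, were higher in both cello libraries. Their part in the Diaph3 value was not tested.

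The nonmuscle myosin heavy chain genes Myh9 and Myh14 did not separate the genotypes. Myh9 had 239.1 and 179.1 CPM in cello against 212.5 and 232.8 CPM in wild-type, with the cello libraries on either side of the wild-type ones. Myh14 had 93.9 and 84.6 CPM in cello against 90.8 and 105.0 CPM in wild-type. Rdx, which encodes radixin, a linker of actin to the plasma membrane, was the closest to 0, at 159.6 and 169.4 CPM in cello against 166.8 and 170.3 CPM in wild-type (log2 fold change -0.04, 95% interval -0.24 to 0.16), and turned to 0.0053 under TMM rescaling. The bundle base genes Tprn, for taperin, and Ripor2 stood at -0.24 (SE 0.09) and -0.19 (SE 0.11), and for each the cello libraries were the lower ones. Tprn had 27.4 and 26.9 CPM in cello against 30.5 and 33.9 CPM in wild-type. Ripor2 had 19.8 and 23.1 CPM in cello against 23.7 and 25.2 CPM in wild-type, and its gap within cello was larger than the difference.

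Relatives and partners of these genes, 12 genes of nonmuscle myosin, actin and formins, had a median of -0.09, with 8 below 0, and 0 passed in limma. The cytoplasmic beta actin gene Actb stood near Actg1 (-0.30, SE 0.11), while the kinase gene Rock2 stood at 0.19 (SE 0.08). Of 6 measured partners at the bundle base 5 were below 0, against 56.6% of all genes tested. The partners with the smallest p were the phosphatase gene Ptprq (-0.39, SE 0.08) and the scaffold gene Slc9a3r1 (-0.36, SE 0.09).

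**Figure D2:**
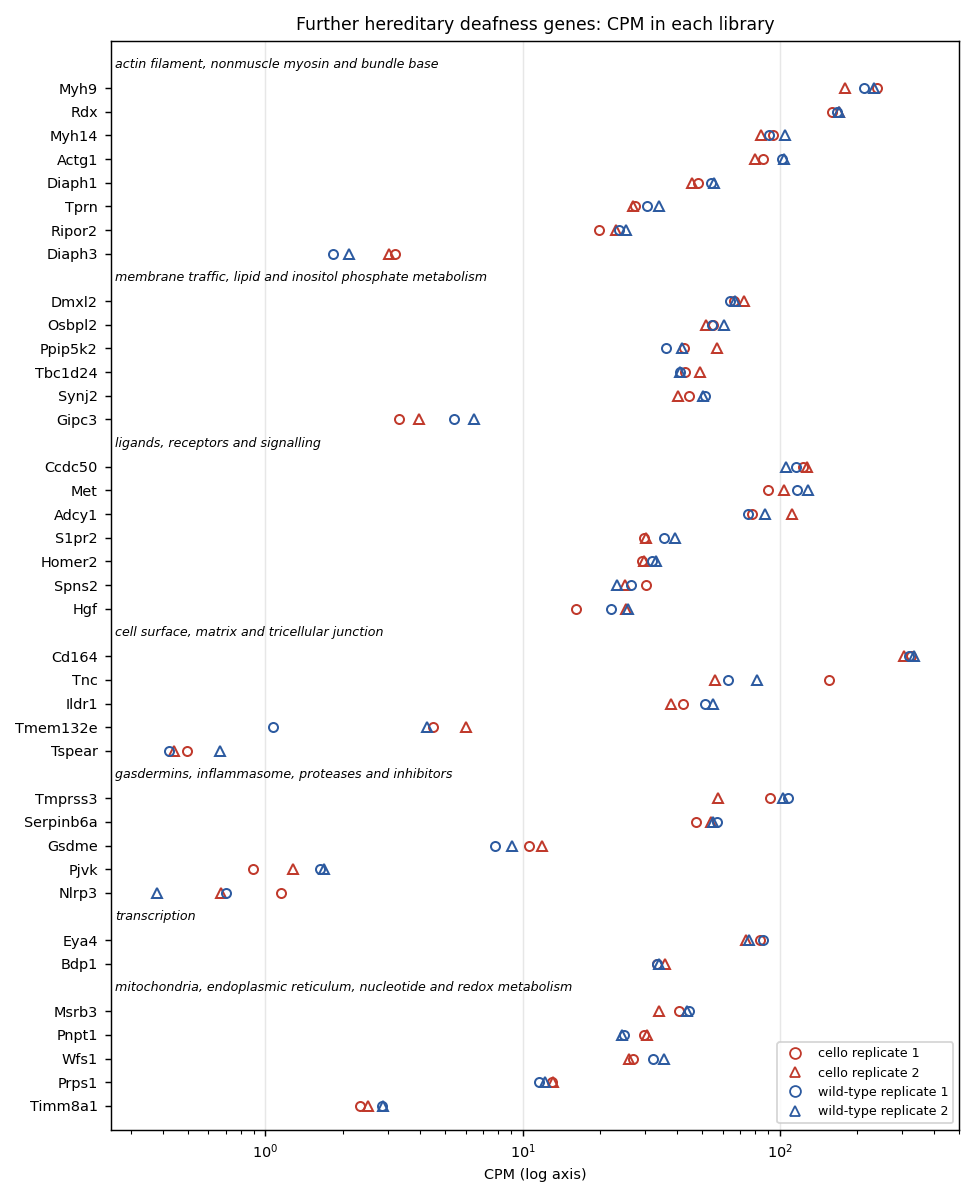
CPM of the 38 members in each library (log axis), grouped by role. Circles and triangles are replicates 1 and 2, red is cello and blue is wild-type. Cd164 is highest at 303.3 to 333.0 CPM, Tspear and Nlrp3 lie near or below 1 CPM, and Tnc and Tmem132e have a single library far from the others.

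Per length of exon, members spanned a wide range of levels. The mean over the 4 libraries was 71.9 CPM per kb of exon for Cd164, a sialomucin gene, 35.9 for Rdx, 35.0 for Actg1 and 22.7 for Tmprss3. The median of the 38 members was 6.73 CPM per kb of exon. At the low end were Gsdme at 0.773, Diaph3 at 0.457, Nlrp3 at 0.179 and Tspear at 0.172 CPM per kb of exon. Without regard to length, the middle member lay above 70.9% of all genes tested in mean CPM.

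In the group of membrane traffic and lipid genes, Gipc3 and Synj2 were lower. Gipc3 (chromosome 10, 81335265 to 81343266, minus strand) encodes a PDZ protein that binds myosin VI in hair cells. It stood at 3.32 and 3.94 CPM in cello against 5.41 and 6.50 CPM in wild-type, the lowest log2 fold change of all members (-0.64, SE 0.18, limma adjusted p = 0.425). The ratio of the means, cello over wild-type, was 0.610, and the genotypes did not overlap. Synj2 (chromosome 17, 5941280 to 6044290, plus strand), a phosphoinositide phosphatase gene, had 44.4 and 40.3 CPM in cello against 51.1 and 50.2 CPM in wild-type (-0.26, SE 0.09, limma adjusted p = 0.441). A stretch of 297 exonic bases of Synj2 is shared with Serac1 on the opposite strand, and reads there cannot be assigned without a known strand setting. In all, 10 members share exonic bases with another annotated gene, among them Ppip5k2 with 84 bases of Gin1.

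The other genes of this group stood higher or near 0. Ppip5k2 encodes a kinase that makes inositol pyrophosphates, and lies on chromosome 1 (97706048 to 97770411, minus strand), 28.0 megabases beyond the end of Ikzf2. It had 42.6 and 56.9 CPM in cello against 36.1 and 41.5 CPM in wild-type, higher in each cello library (0.34, SE 0.16, limma adjusted p = 0.494), but the gap within cello was larger than the difference. Tbc1d24, a gene of vesicle traffic, had 43.0 and 48.9 CPM in cello against 41.0 and 41.1 CPM in wild-type (0.16, SE 0.09). The genotypes did not overlap for Tbc1d24, but its gap within cello was larger than the difference. They did overlap for Dmxl2 and Osbpl2. Dmxl2, a regulator of vesicle acidification, had 66.2 and 72.4 CPM in cello against 63.9 and 67.2 CPM in wild-type (0.08, SE 0.08). Osbpl2, of the oxysterol-binding protein family, had 55.3 and 51.9 CPM in cello against 54.6 and 60.7 CPM in wild-type (-0.10, SE 0.09).

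The PDZ relative Gipc1 stood lower as Gipc3 did, with 50.9 and 53.5 CPM in cello against 67.7 and 69.0 CPM in wild-type (-0.39, SE 0.08, limma adjusted p = 0.419). In its list of 6 genes 5 were below 0, with Rhoc at -0.17. Of 11 phosphoinositide, sterol and inositol phosphate genes 5 were below 0 (median 0.04). There the neuronal phosphatase gene Synj1 stood higher, at 63.3 and 60.7 CPM in cello against 44.5 and 50.2 CPM in wild-type (0.39, SE 0.09), and Osbp at -0.17. The 7 vesicle partners had a median of 0.03, with Arf6 at -0.22 and Rogdi at -0.19. In limma 0 genes of these lists passed. Transcripts of 10 spiral ganglion neuron genes summed to 891 and 1043 CPM in cello against 249 and 681 CPM in wild-type, and their part in the Synj1 value was not tested.

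Among ligands, receptors and signalling genes, the receptor genes Met and S1pr2 stood lower. Met (chromosome 6, 17463800 to 17573980, plus strand) encodes the receptor tyrosine kinase for hepatocyte growth factor, and its level was 90.1 and 103.5 CPM in cello against 117.1 and 128.3 CPM in wild-type (-0.34, SE 0.10, limma adjusted p = 0.429). Its ligand gene Hgf had 16.1 and 25.2 CPM in cello against 22.0 and 25.6 CPM in wild-type, and the genotypes overlapped. Hgf was low in 1 cello library, and without it the log2 fold change was 0.08 instead of -0.23.

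S1pr2 (chromosome 9, 20962361 to 20976781, minus strand), a receptor for sphingosine 1-phosphate, had 29.7 and 30.3 CPM in cello against 35.6 and 39.1 CPM in wild-type (-0.31, SE 0.09, limma adjusted p = 0.429). Both cello libraries were below both wild-type libraries. Spns2, the exporter that supplies this lipid outside cells, had 30.2 and 25.1 CPM in cello against 26.4 and 23.2 CPM in wild-type, and overlapped (0.15, SE 0.13). Of 11 other genes of sphingosine 1-phosphate signalling 7 were below 0 (median -0.09) and 0 passed in limma. The transporter gene Spns1 stood at -0.26 (SE 0.08) and the kinase gene Sphk2 at -0.25 (SE 0.09).

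Of 7 tested partners of HGF and MET 4 were below 0, and the protease inhibitor genes Spint2 and Spint1 differed most clearly. Spint2 had 164.7 and 166.5 CPM in cello against 223.3 and 241.0 CPM in wild-type (-0.49, SE 0.08, limma adjusted p = 0.419). It passed in DESeq2 (adjusted p = 0.0016) and neither in limma nor in edgeR, and is also 1 of the 12 general epithelial genes. Spint1 stood at -0.44 (SE 0.09). Both encode inhibitors of cell surface serine proteases. Adcy1, an adenylyl cyclase gene, had 78.0 and 111.3 CPM in cello against 75.4 and 87.9 CPM in wild-type (0.19, SE 0.19), and the genotypes overlapped.

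Homer2, a scaffold gene, had 29.3 and 29.6 CPM in cello against 32.0 and 33.1 CPM in wild-type (-0.14, SE 0.08). Ccdc50, for a ubiquitin-binding coiled-coil protein, had 123.4 and 128.3 CPM in cello against 116.2 and 105.9 CPM in wild-type (0.18, SE 0.08). The genotypes did not overlap for either, Homer2 being lower and Ccdc50 higher in cello. In the 12 adenylyl cyclase and Homer relatives 8 were above 0 (median 0.02), and 0 passed in limma. The synaptic scaffold genes Shank1 (0.71, SE 0.18) and Shank3 (0.50, SE 0.17) stood higher in each cello library. Spiral ganglion neuron genes summed to 891 and 1043 CPM in cello against 249 and 681 CPM in wild-type. The part of neurons in the Shank1 and Shank3 values was not tested.

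**Figure D3:**
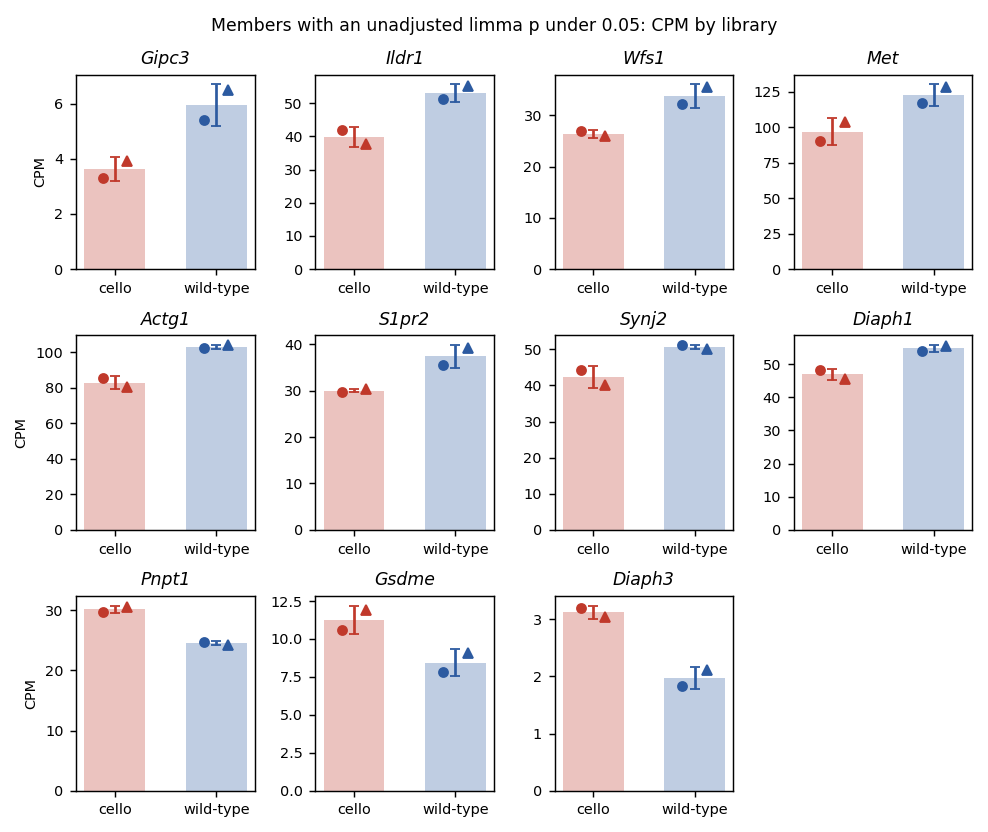
CPM of the 11 members with an unadjusted limma p under 0.05. Bars are means of 2 libraries with the SD, circles and triangles are replicates 1 and 2, and cello is left of wild-type. In each panel the points of the genotypes do not overlap, with 8 members lower and 3 higher in cello.

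Ildr1 had the smallest p of all members. It encodes an angulin, a membrane protein of the tricellular tight junctions, which seal the corners of epithelial cells. The gene (chromosome 16, 36693978 to 36726804, plus strand) measured 42.0 and 37.8 CPM in cello against 51.3 and 55.1 CPM in wild-type. Both cello libraries were lower, by a log2 fold change of -0.41 (SE 0.09, 95% interval -0.65 to -0.18, limma adjusted p = 0.419), and its p ranked 201 among all genes tested.

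Other tight junction genes stood lower as well. Of 7 partner genes 6 were below 0 and did not overlap, against 28.7% of all genes that did not overlap on the lower side, with a median of -0.33, and 0 passed in limma. Marveld3, a tight junction protein gene, had 19.1 and 18.4 CPM in cello against 28.8 and 29.1 CPM in wild-type (-0.62, SE 0.09, limma adjusted p = 0.419), and it passed in DESeq2 (adjusted p = 0.0063). The angulin relative Ildr2 was the member of the list on the other side, with 33.7 and 40.0 CPM in cello against 32.9 and 30.0 CPM in wild-type (0.22, SE 0.12). The 12 general epithelial markers had a median of -0.39, and their part in the values of Ildr1 and its partners was not tested.

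For the matrix and surface genes Tnc and Tmem132e single libraries stood far from the rest. Tnc, for the matrix glycoprotein tenascin C, had 155.6 and 55.9 CPM in cello against 62.8 and 81.7 CPM in wild-type. A cello library was thus the highest and the other the lowest of all. The log2 fold change was 0.38 (SE 0.48), and -0.35 without cello replicate 1. In that library the bone genes summed to 3190 CPM, against 1190 CPM in the other cello library and 1527 and 1687 CPM in wild-type, and 0 of the 8 bone genes lacked reads. The part of bone in the Tnc value was not tested.

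Tmem132e (chromosome 11, 82388900 to 82446332, plus strand), a single-pass membrane protein gene, had 4.48 and 6.03 CPM in cello against 1.07 and 4.25 CPM in wild-type. The genotypes did not overlap, and its log2 fold change of 1.06 (SE 0.54, limma adjusted p = 0.519) was the highest of all members, but it rested on wild-type replicate 1, without which it was 0.26. That library was also the lowest for the summed spiral ganglion neuron genes (249 CPM, against 681 CPM in the other wild-type library) and Schwann cell genes (1118 against 2705 CPM). Whether these cells account for it was not tested. Cd164 had 324.6 and 303.3 CPM in cello against 319.2 and 333.0 CPM in wild-type, and overlapped (-0.06, SE 0.09). Tspear, for a secreted or surface protein with EAR repeats, had 0.495 and 0.442 CPM in cello against 0.422 and 0.664 CPM in wild-type, at 21 to 28 reads, and was not tested.

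Among 7 tested relatives of the tenascins and TMEM132 proteins 5 were below 0 (median -0.07) and 0 passed in limma. The integrin gene Itga9, a tenascin receptor subunit, stood lower at 39.7 and 42.9 CPM in cello against 53.6 and 55.3 CPM in wild-type (-0.40, SE 0.08), and Itgav at 0.19 (SE 0.11).

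**Figure D4:**
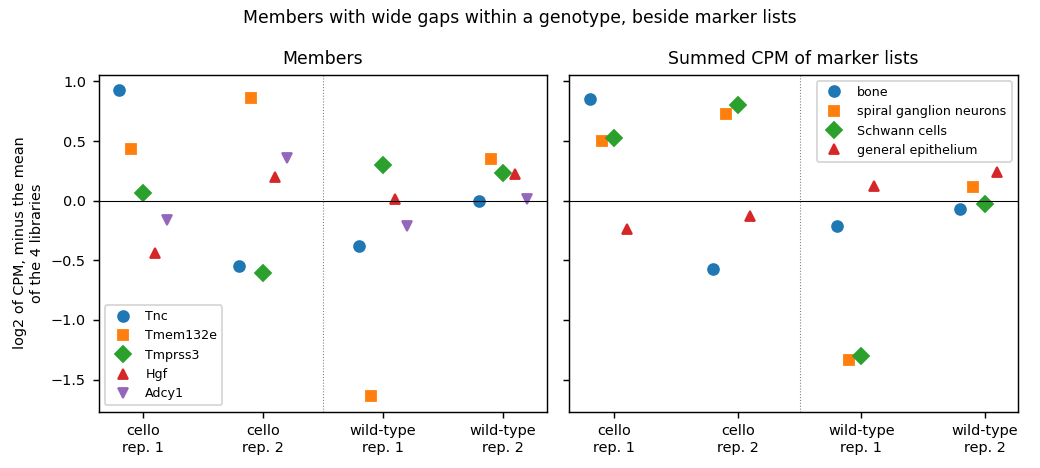
Log2 CPM of 5 members with a gap of more than 0.5 within a genotype (left) and of the summed CPM of 4 marker lists (right), each minus its mean over the 4 libraries. Each symbol is a gene or a list, and cello libraries are left of the dotted line. Tnc and bone genes are highest in cello replicate 1, and Tmem132e, neuron and Schwann cell genes are lowest in wild-type replicate 1.

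Of the gasdermin family members, Gsdme stood higher and Pjvk lower, and neither passed. Gsdme encodes gasdermin E, which forms pores in the plasma membrane when cleaved by a caspase. Gsdme (chromosome 6, 50188888 to 50263862, minus strand) had 10.6 and 11.9 CPM in cello against 7.80 and 9.09 CPM in wild-type, higher in each cello library (0.39, SE 0.14, limma adjusted p = 0.444). Pjvk encodes pejvakin, a relative of the gasdermins. Pjvk (chromosome 2, 76648476 to 76658556, plus strand) had 0.895 and 1.29 CPM in cello against 1.63 and 1.68 CPM in wild-type, lower in each cello library (-0.45, SE 0.23, limma adjusted p = 0.525). The Pjvk values rest on 38 and 61 reads in cello and 81 and 71 reads in wild-type.

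Tmprss3, a transmembrane serine protease gene, was lower chiefly in 1 cello library. Tmprss3 (chromosome 17, 31179265 to 31198977, minus strand) had 91.8 and 57.7 CPM in cello against 108.1 and 103.0 CPM in wild-type. The genotypes did not overlap (-0.53, SE 0.22, limma adjusted p = 0.467), but the difference was smaller than the gap within cello, and was -0.20 without cello replicate 2. Serpinb6a, an intracellular protease inhibitor gene, had 47.2 and 54.0 CPM in cello against 57.2 and 55.2 CPM in wild-type (-0.15, SE 0.10), without overlap. Here too the gap within cello was larger than the difference. The level of Serpinb6a is uncertain, since it has close tandem copies and shares 762 exonic bases with Nqo2 on the opposite strand. Nlrp3, the inflammasome sensor, had 1.15 and 0.674 CPM in cello against 0.704 and 0.380 CPM in wild-type, at 16 to 49 reads, and was not tested.

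Of 7 tested gasdermin and inflammasome partners 5 were above 0 (median 0.03), with Casp1 at 0.43 (SE 0.22) and Nek7 at 0.09. Casp1 was near the 1 CPM limit, at 1.65 and 1.33 CPM in cello against 1.05 and 0.90 CPM in wild-type. DESeq2 left its adjusted p undefined. Of 6 serine protease and serpin relatives 4 were below 0 (median -0.24). The epithelial protease genes St14 (-0.36, SE 0.08) and Prss8 (-0.34, SE 0.08) stood lower, St14 at 51.5 and 50.2 CPM in cello against 62.1 and 68.5 CPM in wild-type. In limma 0 genes of either list passed.

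The transcription genes Eya4 and Bdp1 overlapped between the genotypes. Eya4, a transcriptional coactivator and phosphatase of sensory organ development, had 83.7 and 73.8 CPM in cello against 85.9 and 76.0 CPM in wild-type (-0.04, 95% interval -0.31 to 0.23, and 0.0009 under TMM rescaling). Bdp1, a subunit of an initiation factor of RNA polymerase III, had 33.4 and 35.8 CPM in cello against 33.3 and 33.9 CPM in wild-type (0.04, SE 0.08). In the network of Eya4 relatives and partners 10 of 10 tested genes were below 0 and 8 did not overlap, against 56.6% and 28.7% of all genes, with a median of -0.26, and 0 passed in limma. The 12 general epithelial markers, with 12 below 0 and a median of -0.39, stood on the same side, and their part in these values was not tested. Six2, a homeobox gene, had 30.5 and 31.4 CPM in cello against 42.2 and 44.2 CPM in wild-type (-0.48, SE 0.08, limma adjusted p = 0.419, DESeq2 adjusted p = 0.031). Pax2, an otic transcription factor gene, had 14.8 and 11.9 CPM in cello against 18.2 and 18.0 CPM in wild-type (-0.44, SE 0.14). The difference between these genes and Eya4 was not tested. Of 9 genes of RNA polymerase III 5 were below 0 (median -0.01), with Gtf3c1 at -0.25 (SE 0.08) and Brf2 at -0.33 (SE 0.13).

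Genes of mitochondria and metabolism were split in direction. Wfs1 (chromosome 5, 36966104 to 36989205, minus strand) encodes wolframin of the endoplasmic reticulum. The libraries gave 26.9 and 25.9 CPM in cello against 32.1 and 35.5 CPM in wild-type (-0.35, SE 0.09, limma adjusted p = 0.423). Pnpt1 (chromosome 11, 29130744 to 29161828, plus strand) encodes polynucleotide phosphorylase, an RNA processing enzyme of mitochondria. It stood at 29.7 and 30.6 CPM in cello against 24.8 and 24.3 CPM in wild-type (0.29, SE 0.09, limma adjusted p = 0.429). For each the genotypes did not overlap, and libraries of the same genotype lay closer to each other than to the rest.

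Msrb3, a methionine sulfoxide reductase gene, had 40.5 and 33.9 CPM in cello against 44.3 and 43.5 CPM in wild-type (-0.24, SE 0.11). Its gap within cello was larger than the difference. Timm8a1, a chaperone gene of mitochondrial import on chromosome X, had 2.33 and 2.51 CPM in cello against 2.84 and 2.87 CPM in wild-type (-0.20, SE 0.18). Prps1, a gene of nucleotide synthesis on the same chromosome, had 13.0 and 13.2 CPM in cello against 11.6 and 12.2 CPM in wild-type (0.13, SE 0.11). Timm8a1 and Msrb3 were lower and Prps1 higher in each cello library, and the values of Timm8a1 and Prps1 are uncertain because these genes have close copies.

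Among 8 endoplasmic reticulum stress genes 5 were below 0 (median -0.06), with the chaperone gene Hspa5 at -0.22 (SE 0.12) and Eif2ak3 at 0.11. Of 10 genes of mitochondrial import, RNA and redox 8 were below 0 (median -0.10), with Msra at -0.26 (SE 0.15) and Timm13 at -0.14. The 7 genes around phosphoribosyl pyrophosphate had a median of 0.00, with Aprt at -0.21 (SE 0.10) and Prpsap1 at -0.12. In limma 0 genes of these 3 lists passed. Over all partner lists together 89 of 143 genes tested were below 0, with a median of -0.07. Of all genes tested 56.6% were below 0, with a median of -0.03.

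Members known for hair cell enrichment mostly stood lower. Chosen from general knowledge, with earlier results of these data known, these are Gipc3, Tprn, Tmprss3, Pjvk, Synj2, Ripor2, Homer2, Rdx, Tmem132e and Ildr1. Of these 10, 9 were below 0 and 8 did not overlap on the lower side, with a median log2 fold change of -0.25. Of the other 26 tested members 14 were below 0 and 8 did not overlap on the lower side, with a median of -0.05, which are shares near those of all genes. Over all genes tested 56.6% were below 0 and 28.7% did not overlap on the lower side. The difference between the 2 sets was not tested, and it depends on which members were put in the first set. On the scale of deviations from the mean of the libraries, the median of the 10 was -0.09 and -0.10 in the cello libraries and 0.10 and 0.21 in the wild-type libraries. The outer hair cell marker list had a median of -0.33. Lists of other cell types also stood low, at -0.39 for general epithelium, -0.38 for stria vascularis and -0.32 for supporting cells. Those of spiral ganglion neurons and Schwann cells stood at 1.34 and 1.18. The rest lay between -0.18 and 0.29, apart from the list of hair cells of both kinds, given next. The list of hair cells of both kinds had a median of -0.47 with 8 of 11 tested genes below 0, but its summed level was 456 and 464 CPM in cello against 461 and 499 CPM in wild-type. Much of that sum was Myo6, at 241.3 and 226.0 CPM in cello against 239.9 and 247.7 CPM in wild-type. In that list 7 genes did not overlap on the lower side, Pou4f3 (-0.86), Tmc1 (-0.80), Rasd2, Gfi1, Lhx3, Smpx and Espn. Myo6, Myo7a and Otof overlapped between the genotypes, and so did Atoh1, which was not tested. Pvalb was higher in both cello libraries.

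**Figure D5:**
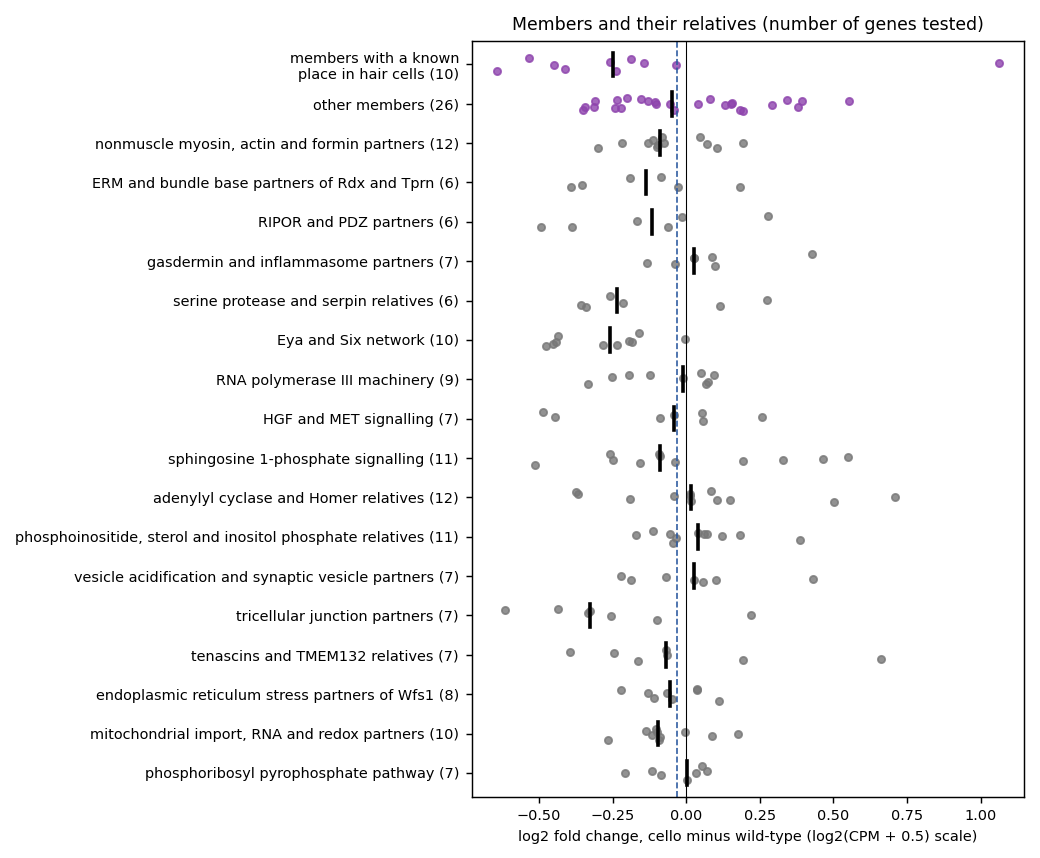
Log2 fold change, cello minus wild-type (x axis, log2(CPM + 0.5) scale), of members, of which those known for hair cell enrichment are shown apart, and of the genes in each partner list. The first set is labelled as having a known place in hair cells. Dots are genes tested, black bars are medians, the number of genes is in parentheses and the dashed line is the median of all genes tested. The medians of the junction partners (-0.33) and of the Eya4 network (-0.26) are the lowest of the partner lists.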

How the data were processed

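Whole cochlear RNA of 2 cello and 2 wild-type samples was sequenced from TruSeq libraries, per the labels' protocols. The deposited values are CPM per gene, 1 file per library. TopHat and the build GRCm38 are named in the submitters' processing notes. The counter, its strand setting and its annotation were not given in the sources used here. The CPM sums include 5 entries without a gene (unassigned, ambiguous or non-unique alignments). These held 27.2% to 30.0% of alignments and were left out of the tests. Every CPM (100% of values, tolerance 0.001 of a read) was a whole multiple of its file's smallest value, so reads were recovered. A count of 3 reads, the limit that a count of 0 allows, is 0.0603 to 0.0712 CPM, for counting error only.

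Symbols, positions and exon lengths came from GENCODE M21 (GRCm38), with 36504 of 37239 identifiers matched, and promoters from RefSeq. Genes at 1 CPM or more in 2 or more libraries were fitted with limma 3.58.1 (R 4.3.3) as log2(CPM + 0.5), with a variance trend, two-sided, and Benjamini-Hochberg adjustment over all genes. This scale understates the change of low genes. With 2 libraries on each side the smallest exact permutation p is 0.333. The recovered reads were also tested with edgeR 4.0.16 (TMM scaling, quasi-likelihood test) and by a Wald test in DESeq2 1.42.0, which left 1142 adjusted p undefined. The fits were also run on simulated counts, drawn for each gene on its own and without differences in make-up between libraries. That outcome is not reported here, and it does not cover such differences.

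The members and lists were chosen with earlier results of these data known. Every member and Ikzf2 are named. Members with an unadjusted limma p under 0.05, or without overlap and with an absolute log2 fold change of at least 0.3, are given in full. From each partner list the 2 genes with the smallest p are named, except 1 that is not reported here, with Ildr2 added after its values were seen. Alternatives were other pseudocounts, filters and scalings, no trend, the count tests, a replicate block, and each library left out. Barttn and 3 further symbols of the lists were not found under those names. The numbers in the titles do not state a shared litter.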

Additional observations from a re-analysis of the deposited data

How the results depend on the processing

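The limma call of 0 members held under the 14 other settings, which included edgeR and DESeq2. Over all genes 0 were called in limma and edgeR, against 195 in DESeq2, and 0 to 90 when 1 library was left out, with 90 without wild-type replicate 2. The median over members was -0.17 to -0.07 when 1 library was left out, and -0.17 without wild-type replicate 1. Of 499 values of single members 14 changed sign, in 7 members near 0 or set by 1 library, and the cause was not tested. Rdx was 0.0053 with TMM rescaling, 0.0036 with median-of-ratios rescaling, 0.0058 in edgeR and 0.0039 in DESeq2, and Eya4 was 0.0009 with TMM rescaling and 0.0006 in edgeR. With 1 library left out, Rdx ranged from -0.0784 to 0.0076, Eya4 from -0.13 to 0.0498, Myh9 from -0.31 to 0.10, Hgf from -0.55 to 0.081, Adcy1 from -0.0615 to 0.45, Tnc from -0.35 to 1.11 and Bdp1 from -0.0079 to 0.0895. The lone library of a genotype is then assumed to vary like the other. The replicate block called 0 members and 0 genes, and libraries with the same number deviated together only weakly (correlation 0.13 across 14721 genes, which are not independent replicates). The counts of members without overlap have no value of their own in edgeR and DESeq2.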
